A study of Homo sapiens and Pan troglodytes with 11 samples.

Results

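BAZ1A and PSMA6 are a pair of genes on the long arm of chromosome 14 whose transcripts were counted in every library of a screen of human accelerated regions, which are sequences conserved across mammals that gained many substitutions in humans. They were taken by name and are 2 of the 24 genes measured, and 2 of the 7 genes (with AKAP6, ARHGAP5, DCTD, NPAS3 and TENM3) that were probed in all 11 libraries. WTC11, an induced pluripotent stem cell line, gave the 6 human libraries, and C3649, its chimpanzee counterpart, gave the 5 chimpanzee libraries. All cells were excitatory neurons differentiated for 2 weeks and carried CRISPR interference, which silences a site by bringing catalytically inactive Cas9, fused to a repressor domain, to the sequence that a guide RNA matches. Each species was 1 line, so species, line and differentiation cannot be told apart. Each guide was read through 1 of 28 guide barcodes, which no source used here links to a target or a control, so no library is an untreated control.

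By the labels, libraries human 1 to 3 with chimpanzee 1 and 2 formed screen replicate 1, and the remaining 6 libraries formed screen replicate 2. The assay was HyPR-seq, in which probes on fixed cells are ligated and counted as unique molecular identifiers (UMIs) per droplet barcode. Human 1, 2, 3 and 6 and chimpanzee 1, 2 and 5 were probed with 10 genes (panel 1). Human 4 and 5 and chimpanzee 3 and 4 were probed with 21 genes (panel 2), and these 4 libraries all belong to screen replicate 2. No label states whether such libraries came from separate cultures. The p-values of species and panel comparisons therefore measure the spread between these libraries, which may be partly technical.

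BAZ1A encodes ACF1, the accessory subunit that pairs with an ISWI ATPase in the ACF and CHRAC chromatin remodelling complexes, which slide and space nucleosomes. PSMA6 encodes an alpha-type subunit of the proteasome's core particle, the chamber in which ubiquitin-tagged proteins are cut, and such core subunits are expressed in nearly all cells, neurons included. On GRCh38 with GENCODE 29, BAZ1A (ENSG00000198604.10) lies on chromosome 14 from 34752731 to 34875647 on the minus strand. PSMA6 (ENSG00000100902.10) lies on chromosome 14 from 35278633 to 35317493 on the plus strand. The gap between them is 403 kb and holds 4 protein-coding genes, SRP54, FAM177A1, PPP2R3C and KIAA0391. ARHGAP5, AKAP6 and NPAS3 lie further towards the centromere on the same arm, with 0.95 Mb between the end of NPAS3 and BAZ1A. Of the 6506 exonic bases of PSMA6, 14.1% are also annotated to a readthrough gene that runs into it, and PSMA6 has 4 processed pseudogenes, the nearest 97.4% identical over 741 aligned bases. Of the 7698 exonic bases of BAZ1A, 951 overlap exons of an antisense gene. Where the probes sit on either transcript is not given in the sources used here, so PSMA6 UMIs from such copies are uncertain.

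The libraries held 41950 cells, between 1199 and 7562 each, with a median of 28 (human 4) to 272 (chimpanzee 1) UMIs of the 7 shared genes per cell. Of the 3825 cells of human 4, 2010 had fewer than 30 such UMIs, and GAPDH made up 86.0% of their gene UMIs against 53.5% in the deeper cells of that library. Droplet barcodes recurred between some libraries. Human 4 shared 1060 barcodes with human 5 and 1003 with chimpanzee 3, human 5 shared 995 with chimpanzee 3, and chimpanzee 4 shared 1436 with chimpanzee 5, while random draws of such 12-base barcodes would give at most 2.63 in any pair. Human 6 shared 400 with chimpanzee 5 and 234 with chimpanzee 4, and every other pair shared at most 27. Results are therefore also given without those cells where that changes a call or the overlap of groups. The label of neurons was checked on the few markers measured: in panel 2 libraries the neuronal genes NRSN2 and ONECUT2 had a UMI in 84.8% to 97.2% and 66.4% to 90.05% of cells, and another neuronal gene, SCRT2, in 48.8% to 67.5%. GLI2, which marks progenitors and glia, had one in 36.4% and 46.2% of human cells and in 83.6% and 74.6% of chimpanzee cells. DAZL, a germ-cell gene, had one in 24.8% to 34.0% of cells.

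BAZ1A made up a smaller share of the shared genes' UMIs in human than in chimpanzee libraries, and PSMA6 a larger one. Because every library was scaled to the same 7 genes, each level is a share, and a share also moves when another of the 7 moves. In summed counts, fewer cells expressing a gene and less RNA per cell cannot be told apart. BAZ1A took 4.60% of the UMIs of the 7 genes in human 1, 4.69% in human 2, 4.58% in human 3, 8.83% in human 4, 8.94% in human 5 and 5.93% in human 6. In chimpanzee libraries 1 to 5 the BAZ1A share was 9.73%, 8.10%, 11.8%, 11.5% and 9.35%. The human libraries thus fell into a low set on panel 1 and a higher pair on panel 2, and human 4 and 5 stood above chimpanzee 2, so the groups overlapped. PSMA6 took 10.4%, 12.6%, 11.3%, 13.8%, 12.4% and 12.7% of the UMIs in human 1 to 6. In chimpanzee libraries 1 to 5 its share was 6.86%, 11.1%, 9.41%, 10.8% and 8.17%. Human 1 stood below chimpanzee 2 and 4, and every other human library stood above every chimpanzee library for PSMA6.

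**Figure D1:**
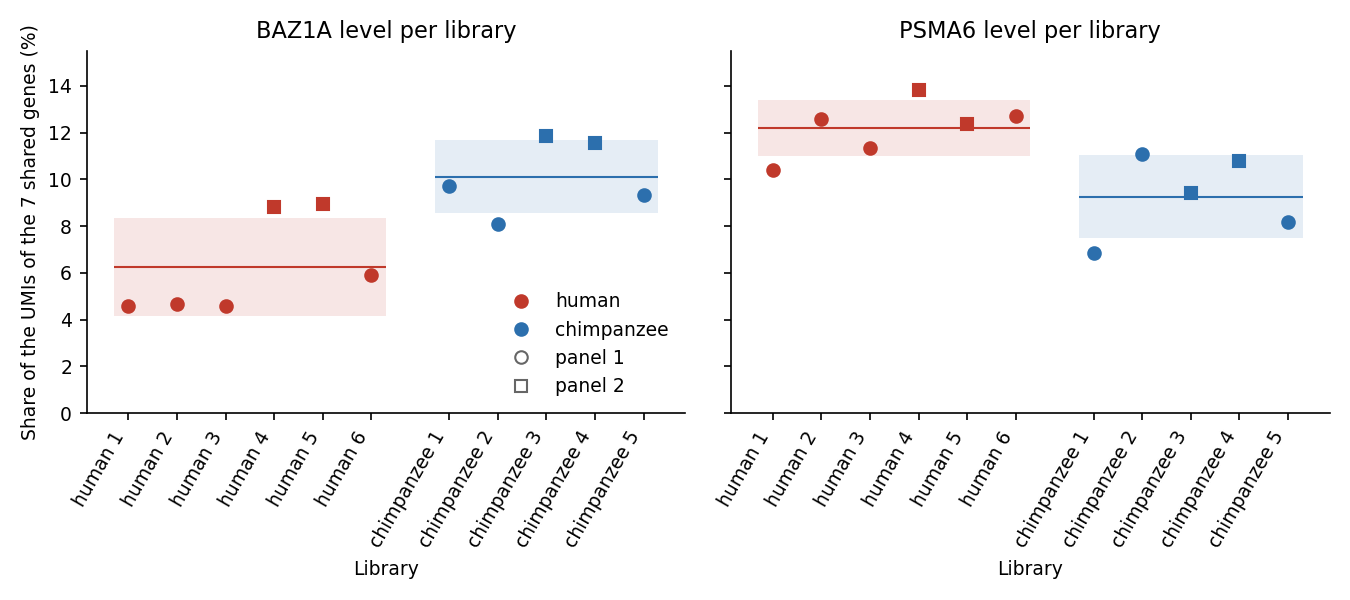
Share of the UMIs of the 7 shared genes (%, axis from 0) taken by BAZ1A (left) and PSMA6 (right) in each library; circles are panel 1, squares panel 2, lines the mean and bands 1 SD over the 6 human or 5 chimpanzee libraries. BAZ1A lies at 4.58% to 5.93% in human panel 1 libraries and at 8.10% or above in all others, while PSMA6 is lowest in chimpanzee 1 at 6.86% and highest in human 4 at 13.8%.

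In order of BAZ1A share, human 3, 1 and 2 did not differ beyond counting error (95% exact binomial intervals of 4.50% to 4.67%, 4.51% to 4.69% and 4.60% to 4.79%). Human 4 and 5 also overlapped (8.70% to 8.95% and 8.84% to 9.04%), and the other neighbours in the order were separated. For PSMA6 the intervals of human 5 and 2 (12.3% to 12.5% and 12.4% to 12.7%) and of human 2 and 6 (12.6% to 12.8% in human 6) overlapped. These intervals cover counting error only, and UMIs of 1 cell are not independent cells.

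After TMM scaling the level of BAZ1A was 64.1 ± 18.3 per 1000 UMIs (SD, n = 6) in human and 96.6 ± 11.7 (SD, n = 5) in chimpanzee libraries. The log2 ratio of human over chimpanzee was -0.59 ± 0.19 (SE, adjusted p = 0.0136, edgeR quasi-likelihood test, Benjamini-Hochberg over 24 genes). PSMA6 stood at 126 ± 8.94 (SD, n = 6) in human and 88.8 ± 17.2 (SD, n = 5) in chimpanzee libraries, a log2 ratio of 0.51 ± 0.11 (SE, adjusted p = 0.000867, edgeR). Of the 24 genes 58.3% passed this test, 37.5% higher and 20.8% lower in human libraries, so passing was common among the genes measured. GLI2 was in more chimpanzee than human cells on panel 2, as given above, and its part in these differences was not tested. Screen replicate 1 alone gave PSMA6 a log2 ratio of 0.45 (adjusted p = 0.0616, edgeR).

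The PSMA6 difference depended on the reference. Against all genes of panel 1, in panel 1 libraries, the log2 ratio of human over chimpanzee was -1.04 for BAZ1A (adjusted p = 0.000114) and 0.27 for PSMA6 (adjusted p = 0.136, edgeR). Against all genes of panel 2 it was -0.74 for BAZ1A (adjusted p = 1.86e-05) and 0.03 for PSMA6 (adjusted p = 0.937, edgeR). BAZ1A was lower in human libraries under each of these references, and PSMA6 was not called against either full panel. GAPDH, the glycolytic enzyme used as a housekeeping gene, took 67.9% and 45.2% of gene UMIs in human 4 and 5 and 52.6% and 50.4% in chimpanzee 3 and 4. Relative to GAPDH, log2 BAZ1A was -5.09 and -3.73 in human 4 and 5 and -3.67 and -3.59 in chimpanzee 3 and 4. The same quantity for PSMA6 was -4.44 and -3.26 in the human and -4.002 and -3.68 in the chimpanzee libraries, with human 4 lowest and human 5 highest.

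The ratio of BAZ1A to PSMA6 UMIs does not depend on any other gene. It counts UMIs from different probes, so only its differences between libraries are read, not which gene has more transcripts. Human 1 to 6 held 0.443, 0.373, 0.404, 0.639, 0.722 and 0.466 BAZ1A UMIs per PSMA6 UMI. Chimpanzee 1 to 5 held 1.42, 0.731, 1.26, 1.07 and 1.14. Every human library stood below every chimpanzee library, with human 5 (log2 of -0.47) next to chimpanzee 2 (-0.45). The mean log2 ratio was -1.02 ± 0.379 (SD, n = 6) in human and 0.135 ± 0.363 (SD, n = 5) in chimpanzee libraries. The difference of -1.15 had a two-sided exact permutation p of 0.00433 over 462 splits (0.0253 after Benjamini-Hochberg adjustment over the 7 values compared this way).

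**Figure D2:**
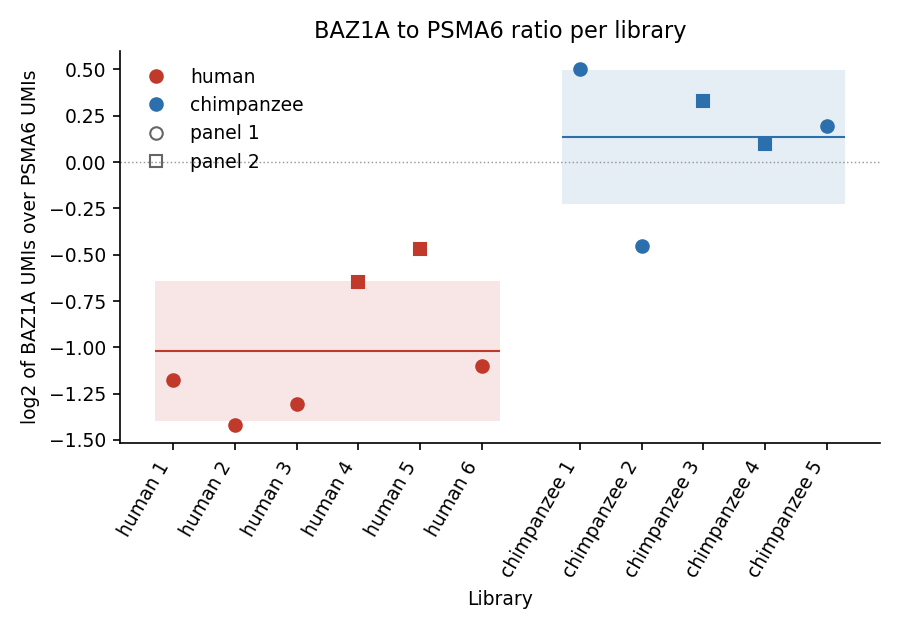
Log2 ratio of BAZ1A to PSMA6 UMIs in each library, with the mean (line) and 1 SD (band) of the 6 human and 5 chimpanzee libraries; circles are panel 1 and squares panel 2. The highest human value, human 5 at -0.47, lies just under the lowest chimpanzee value, chimpanzee 2 at -0.45.

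Within panel 1 the human minus chimpanzee difference in the log2 ratio was -1.33 (exact p = 0.0286, the smallest that 4 against 3 libraries allow). Within panel 2 it was -0.77, where 2 against 2 libraries cannot give an exact p below 0.333. It was -1.33 within screen replicate 1 and -0.95 within screen replicate 2, each with an exact p of 0.1, the smallest possible there. With species permuted only within screen replicates the difference was -1.14 (exact p = 0.005, the smallest possible). Without cells whose barcode recurs in another library the difference was -1.12 (exact p = 0.00649), but the groups then overlapped. They also overlapped without the 5% of cells with most gene UMIs (-1.16, exact p = 0.00649) and with only cells assigned to a guide barcode (-1.003, exact p = 0.0152), where human 6 and chimpanzee 5 rest on 3 and 6 cells. In chimpanzee 5 the log2 ratio was 0.55 in its 1610 cells with a recurring barcode and 0.07 in its other 3902 cells. In human 5 it was -0.66 in 1192 such cells and -0.43 in the other 3429, and in human 4 it was -0.78 and -0.62. Chimpanzee 3 gave 0.21 in 1137 such cells against 0.35, and chimpanzee 4 and human 6 gave 0.10 against 0.09 and -1.07 against -1.10. Whether recurring barcodes are the same cells was not tested.

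Set against each other shared gene in turn, BAZ1A was lower in human libraries relative to ARHGAP5, a GTPase-activating protein, by 1.36 on the log2 scale (mean of -0.86 against 0.49). The groups did not overlap (exact permutation p = 0.00216, the smallest possible, adjusted p = 0.00794 over 11 ratios). Relative to AKAP6, an anchoring protein for protein kinase A, the log2 difference was -1.69 (exact p = 0.0108, adjusted p = 0.0238). Relative to NPAS3, a neuronal transcription factor, it was -0.03 (exact p = 0.911), and relative to TENM3, an adhesion protein of the teneurin family, -0.04 (exact p = 0.84). Those means average panels of opposite sign: relative to NPAS3 the BAZ1A difference was -0.29 within panel 1 and 0.51 within panel 2, and relative to TENM3 -0.21 and 0.33. BAZ1A relative to DCTD, a deoxycytidylate deaminase, differed by -0.67 (exact p = 0.0368, adjusted p = 0.0578). PSMA6 was higher in human libraries relative to NPAS3 by 1.12 and to TENM3 by 1.11, with no overlap (each exact p = 0.00216, adjusted p = 0.00794). PSMA6 relative to DCTD was higher by 0.48 (exact p = 0.0238, adjusted p = 0.0437). The differences of PSMA6 relative to ARHGAP5, at -0.20 (exact p = 0.156), and to AKAP6, at -0.53 (exact p = 0.141), did not pass.

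By likeness of log2 share over all 11 libraries, the genes closest to BAZ1A were TENM3 (Pearson r = 0.78) and NPAS3 (r = 0.73), and those closest to PSMA6 were ARHGAP5 (r = 0.80) and AKAP6 (r = 0.41). Libraries of 1 species share that species, and within the 6 human libraries r was 0.35 for BAZ1A with TENM3 and -0.35 with NPAS3, against 0.71 and 0.91 within the 5 chimpanzee libraries. PSMA6 with ARHGAP5 gave 0.59 within human and 0.49 within chimpanzee libraries, and PSMA6 with AKAP6 turned negative in each (-0.73 and -0.31). AKAP6, the gene with most UMIs among the 7 in human libraries, ran opposite to BAZ1A inside each species. Scaled AKAP6 was 366, 357, 359 and 306 per 1000 UMIs in human 1, 2, 3 and 6, where scaled BAZ1A was 49.7, 50.8, 49.5 and 60.2. In human 4 and 5 scaled AKAP6 was 246 and 257, and scaled BAZ1A 86.0 and 88.2. In chimpanzee 3 and 4, AKAP6 was 95.5 and 95.4 with BAZ1A at 108 and 107, against 204, 234 and 171 with BAZ1A at 98.1, 81.5 and 88.2 in chimpanzee 1, 2 and 5.

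BAZ1A also moved with the probe panel in human libraries, as did AKAP6 and ARHGAP5, and PSMA6 did not pass that test. In human libraries BAZ1A was higher on panel 2 than on panel 1 by 0.81 ± 0.13 on the log2 scale (SE, adjusted p = 5.9e-06, edgeR, n = 6 libraries), with 8.83% and 8.94% against 4.58% to 5.93%. In chimpanzee libraries the same difference was 0.23 ± 0.13 (SE, adjusted p = 0.21, edgeR), with 11.8% and 11.5% against 8.10% to 9.73%, again without overlap. PSMA6 differed between panels by 0.12 ± 0.09 in human and 0.09 ± 0.19 in chimpanzee libraries (SE, adjusted p = 0.287 and 0.723, edgeR). In human libraries AKAP6 and ARHGAP5 passed as well, at -0.38 and 0.30 (adjusted p = 0.00212 and 0.00886, edgeR). Both also passed in chimpanzee libraries, at -1.12 and 0.32 (adjusted p = 0.00109 each, edgeR). DCTD, NPAS3 and TENM3 passed in neither species. The species difference in BAZ1A was smaller on panel 2 than on panel 1 by 0.46 ± 0.14 (SE, adjusted p = 0.0276, edgeR interaction over 7 genes). DESeq2 put this interaction at 0.11 (adjusted p = 0.476), and relative to edgeR its values for the 7 genes were shifted by a median of -0.34. AKAP6 passed the same interaction by edgeR (0.63 ± 0.17, SE, adjusted p = 0.0255) and did not by DESeq2 (0.29, adjusted p = 0.103). No other shared gene passed it by edgeR. DESeq2 instead passed ARHGAP5 (-0.48), NPAS3 (-0.68), TENM3 (-0.43) and DCTD (-0.35), with adjusted p of 9.95e-05, 0.000208, 0.00409 and 0.00876. The interaction for PSMA6 was -0.08 ± 0.24 by edgeR (SE, adjusted p = 0.871) and -0.41 by DESeq2 (adjusted p = 0.103). The interaction of species with screen replicate did not pass for BAZ1A at 0.47 (adjusted p = 0.333, edgeR) or for PSMA6 at 0.10 (adjusted p = 0.862, edgeR). The panel 2 libraries are all of screen replicate 2, and human 6, the panel 1 library of that replicate, had a BAZ1A share of 5.93%, between the other human panel 1 libraries and the panel 2 pair.

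Detection was compared at a fixed depth, taking the exact expectation over all ways of drawing 30 UMIs of the 7 genes from each cell and leaving out the 1 to 2010 cells per library with fewer. At that depth BAZ1A was seen in 73.7%, 72.8%, 71.5%, 88.5%, 89.1% and 81.8% of cells in human 1 to 6. In chimpanzee 1 to 5 it was seen in 93.2%, 88.5%, 96.1%, 95.3% and 94.5%. Human 5 stood above chimpanzee 2, and no other human library reached a chimpanzee one. Without cells whose barcode recurs, the groups did not overlap (highest human value 87.9%, lowest chimpanzee value 88.5%, exact permutation p = 0.00866). The means were 79.6% ± 7.99 (SD, n = 6) and 93.5% ± 3.00 (SD, n = 5), a difference of -13.95 percentage points (exact permutation p = 0.0108, adjusted p = 0.0253 over 7 values). PSMA6 was seen in 95.6%, 97.9%, 96.9%, 98.2%, 97.9% and 98.2% of cells in human 1 to 6 at that depth. In chimpanzee 1 to 5 it was seen in 87.7%, 96.8%, 94.2%, 96.2% and 91.6%. The means were 97.5% ± 1.02 (SD, n = 6) and 93.3% ± 3.74 (SD, n = 5), 4.18 points apart (exact permutation p = 0.00866, adjusted p = 0.0253). Identical cells of the same mean shares would give BAZ1A in 74.8% to 94.2% of human and 91.3% to 97.8% of chimpanzee cells. For PSMA6 they would give 96.3% to 98.8% and 88.8% to 97.4%. Detection at this depth thus mostly follows the share, and its tests are not separate from those of the shares.

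Without the fixed depth BAZ1A had a UMI in 86.8% (human 4) to 98.7% (human 2) of human and in 98.6% to 99.96% of chimpanzee cells. PSMA6 had one in 95.6% (human 4) to 100% of human and 98.5% to 99.96% of chimpanzee cells, a mean difference of -0.45 points (exact p = 0.848), opposite in sign to that at fixed depth. No cell type lacking these genes was present to set a background for detection. A cell held a median of 2 (human 4) to 26 (chimpanzee 1) BAZ1A UMIs and 5 (human 4 and chimpanzee 5) to 19 (chimpanzee 1) PSMA6 UMIs.

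**Figure D3:**
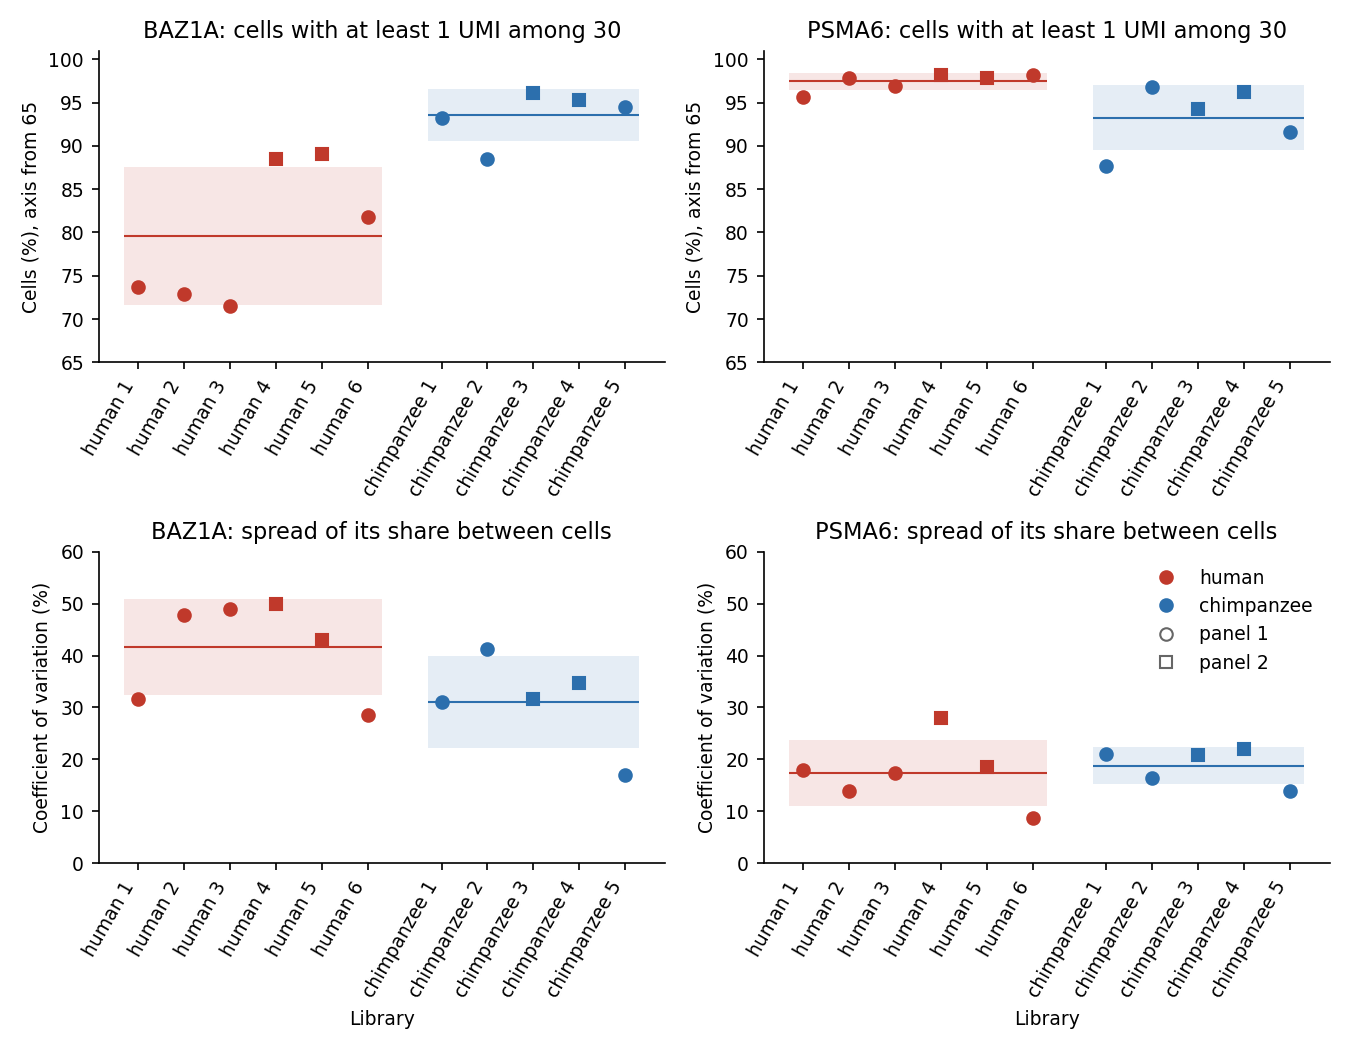
Top: share of cells (%, axis from 65) with at least 1 UMI of BAZ1A or PSMA6 among 30 UMIs of the 7 genes; bottom: coefficient of variation (%) of the gene's share between cells after removing counting noise. Points are libraries (circles panel 1, squares panel 2), lines means and bands 1 SD; BAZ1A detection runs from 71.5% (human 3) to 96.1% (chimpanzee 3), and its spread from 17.0% (chimpanzee 5) to 49.9% (human 4).

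BAZ1A was the most unevenly spread of the 7 genes in every human library. After removing counting noise, the coefficient of variation of its share between cells was 31.6%, 47.9%, 48.9%, 49.9%, 43.0% and 28.6% in human 1 to 6, rank 1 of 7 in each. In chimpanzee 1 to 5 it was 31.1%, 41.2%, 31.7%, 34.7% and 17.0%, rank 2 or 3. PSMA6 spread less, by 17.9%, 14.002%, 17.3%, 28.1%, 18.5% and 8.65% in human and 21.1%, 16.3%, 20.8%, 22.0% and 13.9% in chimpanzee libraries, rank 4 to 7. The species means of this coefficient, as a fraction, were 0.416 and 0.311 for BAZ1A (exact permutation p = 0.0887) and 0.174 and 0.188 for PSMA6 (exact p = 0.673), so neither difference passed. Without human 6 the BAZ1A difference was 0.131 (exact p = 0.0397), against 0.105 with all libraries. The variance over mean at 30 UMIs was 1.27 ± 0.182 (SD, n = 6) and 1.20 ± 0.130 (SD, n = 5) for BAZ1A (exact permutation p = 0.478). For PSMA6 it was 1.00 ± 0.0939 and 1.01 ± 0.0346 (exact permutation p = 0.913).

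A few cells carried much of the BAZ1A spread in some libraries. Of 39299 cells with at least 30 UMIs, 11 had over 5 times the library's BAZ1A share and 2 over 5 times its PSMA6 share. For the other shared genes such cells numbered 9 (AKAP6), 2 (ARHGAP5), 1 (DCTD), 0 (NPAS3) and 0 (TENM3). A gene of small share reaches this limit more easily, and BAZ1A had the smallest share of the 7 in every human library. In human 2, 1 cell held 292 BAZ1A UMIs, 60.7% of its UMIs of the 7 genes, in human 3, 1 cell held 327, and in chimpanzee 2, 1 cell held 598 (81.3%). In human 4, 1 cell held 553 PSMA6 UMIs (90.2%). Without the cells over that limit for any of the 7 genes, 0 to 6 per library, the BAZ1A coefficient was 31.6%, 32.6%, 40.7%, 47.7%, 42.4% and 26.3% in human 1 to 6, still rank 1 of 7 in each. In chimpanzee 1 to 5 it was 30.1%, 35.2%, 31.6%, 34.6% and 17.0%. Among cells with at least 60 UMIs, the range from the 5th to the 95th percentile of BAZ1A share in human 4 was 1.59% to 19.2%, against 1.44% to 8.59% in human 1 and 4.69% to 20.4% in chimpanzee 3.

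Cell by cell, the relation of BAZ1A and PSMA6 was weak at a fixed depth and differed between libraries. Their raw UMIs correlated across cells with r of 0.31 (human 2) to 0.70 (chimpanzee 1), and deeper cells held more UMIs of each gene. At 30 UMIs r was -0.03, -0.07, -0.03, -0.06, -0.08 and -0.07 in human 1 to 6 and -0.07, -0.10, -0.08, -0.04 and -0.11 in chimpanzee 1 to 5. Shares of a fixed total push such values below 0: identical cells of the same mean shares would give -0.07 to -0.13. The observed value lay above that in 10 of 11 libraries, by at most 0.08 (chimpanzee 4), and 0.01 below it in chimpanzee 5. For the other pairs of the 7 genes the median of this difference ran from -0.005 (chimpanzee 5) to 0.024 (chimpanzee 1). That median was above the value of BAZ1A with PSMA6 in chimpanzee 1, 2 and 5. With counting noise removed, the correlation of the shares was 0.36, 0.02, 0.21, 0.08, 0.04 and 0.23 in human 1 to 6 and 0.03, -0.11, 0.09, 0.25 and -0.33 in chimpanzee 1 to 5. The 21 pairs of the 7 genes were ranked by r at 30 UMIs minus its value for identical cells. That excess was the largest for BAZ1A with PSMA6 in human 1, 3 and 6. The pair ranked 3 to 7 in the other human and 3 to 14 in the chimpanzee libraries. With counting noise removed, the correlations of NPAS3 (0.30), PSMA6 (0.27) and DCTD (0.26) with TENM3 stood above that of the pair in human 6. Cells of a library share their library and the 7-gene total, and correlations of this size in sparse counts are given as description only.

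Guide barcodes were assigned to cells in which the leading barcode had at least 5 UMIs and at least 70% of the guide UMIs, which left 2503 human and 3169 chimpanzee cells. Human 6 and chimpanzee 5 had 3 and 6 such cells and do not enter. Pooled over libraries of a species, with the library as a block, 0 of 44 pairs of a barcode with BAZ1A or PSMA6 passed in human and 0 of 48 in chimpanzee cells by edgeR. Over all genes 0% of 202 and 0% of 168 pairs were called, and 13 and 14 had an unadjusted p under 0.05, of which 2 and 2 were pairs with these genes. DESeq2 called 0 in each species as well. The smallest unadjusted p values for BAZ1A in human cells belonged to SplintRbar20 (log2 ratio of 0.23 ± 0.08, SE), Brainbar4 (0.32 ± 0.15) and Brainbar8 (-0.27 ± 0.16), with adjusted p of 0.736, 0.736 and 0.824 by edgeR. In chimpanzee cells they belonged to SplintRbar1 (-0.18, lower in 3 of 3 libraries), Brainbar3 (-0.35 ± 0.21) and SplintRbar5 (-0.14 ± 0.08), with adjusted p of 0.264, 0.853 and 0.864 by edgeR. For PSMA6 they were Brainbar4 (-0.11), SplintRbar24 (0.09) and Brainbar2 (-0.07) in human cells, with the smallest adjusted p at 0.824 by edgeR. In chimpanzee cells they were SplintRbar27 (0.10), SplintRbar17 (-0.18) and Brainbar5 (-0.08), with the smallest adjusted p at 0.264 by edgeR. The interaction of species and barcode passed for 0 of 46 pairs with these genes (0% of 161 pairs over the 7 genes; 4 of the 46 at an unadjusted p under 0.05 by edgeR and 3 by DESeq2, which also called 0).

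On panel 2, in human 4 and 5, BAZ1A differed between guide barcodes. There 10 of 525 pairs of barcode and gene were called by edgeR, 1.9%, and 6 of those 10 were BAZ1A, out of 25 barcodes tested. The p-values of this fit measure the scatter of barcode values between human 4 and human 5, taken over all barcodes. These libraries share 1060 droplet barcodes. PSMA6 was called for 0 of 25, with 1 unadjusted p under 0.05 (SplintRbar28, -0.24 ± 0.10, adjusted p = 0.232) and 0 calls by DESeq2. BAZ1A was lower with SplintRbar28 (log2 ratio to the mean of the other barcodes of -1.04 ± 0.19, SE, adjusted p = 0.00268, edgeR), SplintRbar26 (-0.89 ± 0.17, adjusted p = 0.00268) and SplintRbar27 (-0.71 ± 0.18, adjusted p = 0.0262). It was higher with Brainbar4 (0.70 ± 0.15, adjusted p = 0.00523, edgeR), Brainbar1 (0.64 ± 0.16, adjusted p = 0.0262) and SplintRbar13 (0.57 ± 0.15, adjusted p = 0.0415). The same 6 were called without cells whose barcode recurs between libraries and by DESeq2, which called a further one, SplintRbar24, at -0.74 (adjusted p = 0.013, against -0.69 and 0.0592 by edgeR). With the stricter assignment of at least 10 UMIs and 90% of guide UMIs, 1 BAZ1A pair of 9 was called (SplintRbar27, -1.21 on 12 cells, adjusted p = 0.00171, edgeR). That setting called 3 of 180 pairs over all genes (1.67%).

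The 6 barcodes were called from human 4 and 5 together, so each library's values describe the calls and are not separate support. Both libraries showed each of these differences. With SplintRbar28 BAZ1A took 5.13% of the UMIs of the 7 genes in human 4 (34 cells, against 8.88% in the other assigned cells) and 3.86% in human 5 (9 cells, 22 UMIs, against 9.50%). With SplintRbar26 it took 4.79% in human 4 (37 cells) and 5.55% in human 5 (28 cells), and with SplintRbar27 5.61% (29 cells) and 6.42% (30 cells). These 6 shares lie in or near the range of the human panel 1 libraries, 4.58% to 5.93%. With Brainbar4 BAZ1A took 14.4% in human 4 (12 cells) and 12.2% in human 5 (47 cells), with Brainbar1 12.7% and 11.7% (15 cells each), and with SplintRbar13 11.99% (16 cells) and 12.4% (25 cells). All 6 are above the whole-library shares of 8.83% and 8.94%, and close to or above the 11.8% and 11.5% of chimpanzee 3 and 4. Leaving out the cell with most BAZ1A UMIs of each barcode kept the direction in every case, from 0.11 (Brainbar1 in human 5) to 0.64 (Brainbar4 in human 4) for the higher ones and from -1.60 to -0.64 for the lower ones. PSMA6 stayed between -0.19 and 0.24 on the same log2 scale with these 6 barcodes in human 4 and 5.

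**Figure D4:**
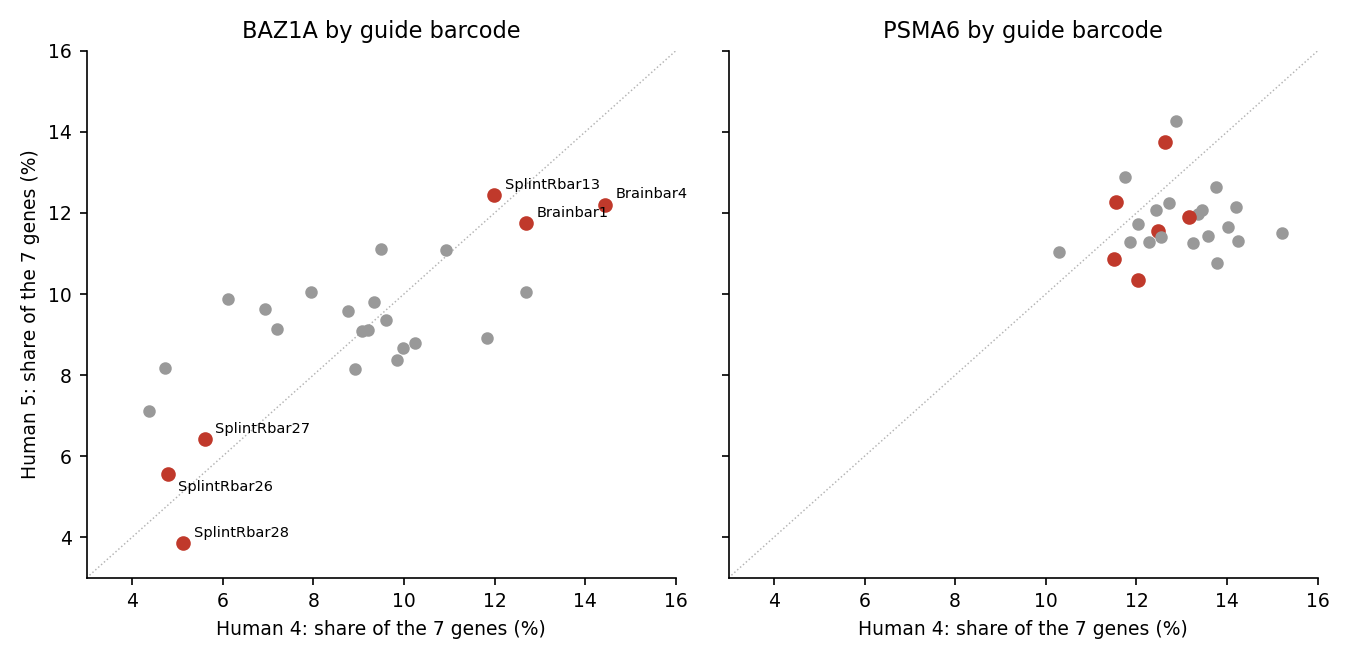
Share of the UMIs of the 7 genes (%) taken by BAZ1A (left) and PSMA6 (right) among cells of each guide barcode, in human 4 (x axis) and human 5 (y axis), for barcodes with at least 5 cells in each; the 6 barcodes called for BAZ1A are in red and named, and the dotted line marks equal shares. In human 5 the 3 lowest and 3 highest BAZ1A shares belong to the called barcodes (3.86% to 6.42% and 11.7% to 12.4%), while in human 4 SplintRbar24 (4.38%) and Brainbar8 (4.73%), which were not called, lie below them.

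Over the 22 barcodes with at least 10 cells in each library, and without recurring cell barcodes, the log2 BAZ1A values of human 4 and human 5 correlated with r = 0.76, and 11 of the 22 had the same sign in both. For PSMA6 r was 0.00, and for the other 5 shared genes it ran from -0.34 (NPAS3) to 0.57 (AKAP6). AKAP6 moved against BAZ1A here too: over barcodes the log2 shares of these genes correlated with r = -0.91 in human 4 (24 barcodes) and -0.72 in human 5 (23 barcodes). The fixed total alone would give about -0.18 and -0.19. In chimpanzee 1 and 2, where no barcode was called for BAZ1A, r was -0.76 and -0.84. In the other libraries with guides it ran from -0.58 (human 3) to -0.28 (chimpanzee 4). AKAP6 took 32.2%, 32.5% and 30.5% with SplintRbar28, 26 and 27 in human 4, and 21.03%, 20.7% and 20.1% with Brainbar4, Brainbar1 and SplintRbar13. In human 5 it took 35.3%, 28.4% and 26.4% with the first set and 21.7%, 20.9% and 22.9% with the other. The part of AKAP6 in the BAZ1A shares was not tested. The cells of the 6 barcodes had a median of 50 to 94 UMIs of the 7 genes, against 60.5 to 77 in the other assigned cells, with SplintRbar28 at 94 against 75 in human 4 and 50 against 62 in human 5. The part of depth was not tested.

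The same 6 barcodes did not set BAZ1A apart in the other libraries. In human 1 to 3, on panel 1, log2 BAZ1A relative to other barcodes was -0.10, 0.27 and 0.14 with SplintRbar28, -0.08, 0.27 and 0.23 with SplintRbar26 and 0.14, 0.20 and 0.36 with SplintRbar27. Brainbar4 gave -0.00, -0.03 and 0.22 there, Brainbar1 gave -0.08 in human 1 (8 cells), and SplintRbar13 had fewer than 5 cells in each. In the 4 chimpanzee libraries with guides the 6 barcodes lay between -0.33 (SplintRbar28 in chimpanzee 3) and 0.27 (SplintRbar13 in chimpanzee 1). Over barcodes the BAZ1A values of any pair of libraries of human 1 to 3 correlated with r between -0.04 and 0.04 (8 to 13 barcodes), those of chimpanzee 1 and 2 with 0.16 (13 barcodes) and those of chimpanzee 3 and 4 with -0.27 (19 barcodes). The fits of human panel 1, chimpanzee panel 1 and chimpanzee panel 2 libraries called BAZ1A and PSMA6 for 0 barcodes each, where 0.556%, 0% and 0.19% of all pairs were called. In those 3 fits BAZ1A reached an unadjusted p under 0.05 with 1 barcode each, and PSMA6 with 2, 0 and 1. DESeq2 also called 0 for these genes in those fits. The difference in barcode effects between human panel 1 and panel 2 libraries was not tested. In the interaction of species and barcode over both panels, Brainbar4 (0.42 ± 0.16, SE) and SplintRbar13 (0.40 ± 0.16) had adjusted p of 0.548 and 0.577 by edgeR for BAZ1A.

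**Figure D5:**
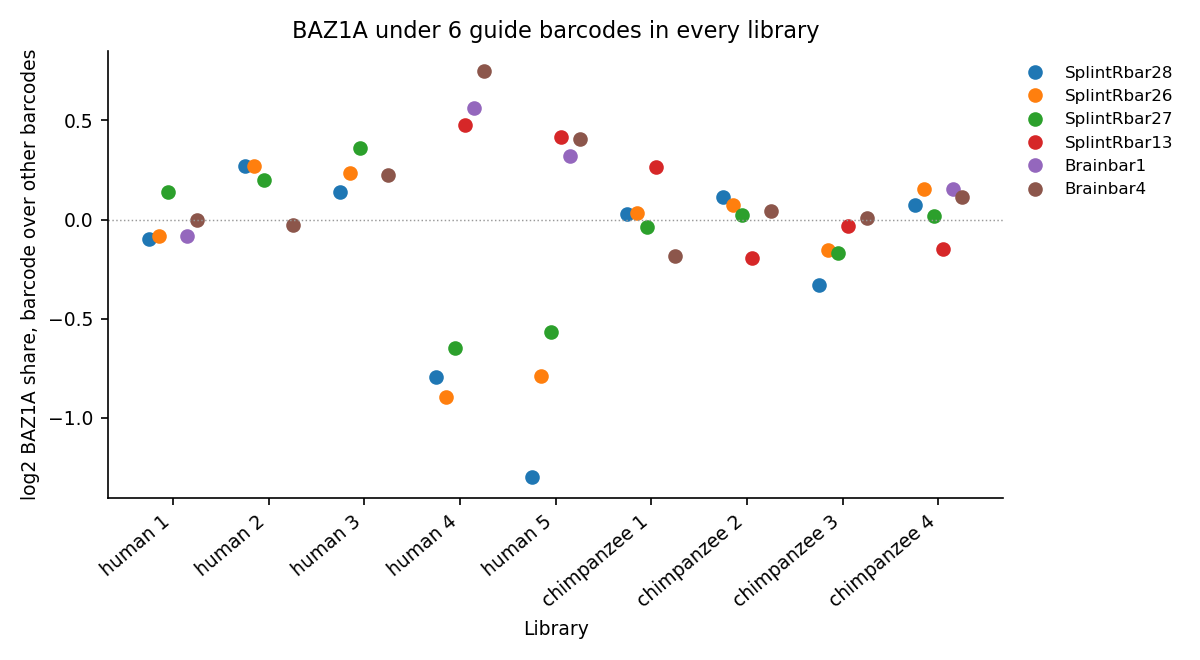
Log2 of the BAZ1A share in cells of 6 guide barcodes over its share in the other assigned cells of the same library, for each library with at least 5 such cells. The barcodes were called from human 4 and 5, where SplintRbar26, 27 and 28 lie at -0.57 or lower. SplintRbar13, Brainbar1 and Brainbar4 lie at 0.32 or higher there. In human 1 to 3 and in chimpanzee libraries all values lie between -0.33 and 0.36.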

How the data were processed

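Each table deposited by the authors holds whole-number UMI counts of genes and guide barcodes per droplet barcode, per the file headers. Processing notes from the submitters name Bowtie, SAMtools, UMI-tools, fastp and hg38; their versions, roles and the rule for keeping cells were not given in the sources used here. BAZ1A and PSMA6, the gene lists and the tests were chosen with earlier results of these data known.

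Counts were summed per library over all deposited cells; doublets were not removed. Fits used edgeR's quasi-likelihood test (4.0.16, R 4.3.3, legacy method with 1 common dispersion, TMM, genes with at least 10 UMIs in 5 libraries, 4 on panel 2, or in 6 sums of cells in guide barcode fits), with Benjamini-Hochberg adjustment over all 24 genes or all pairs of barcode and gene, called at 0.05. Genes on 1 panel were fitted in that panel's libraries. Each SE beside an edgeR log2 ratio is the absolute log2 ratio over the square root of the test's F statistic. Such SEs are approximate, and are not given for every barcode. Guide barcodes needed 5 cells per library. Single values were compared by two-sided exact permutation over libraries. Values at 30 UMIs are exact expectations, and the coefficient of variation had binomial noise removed. Named genes were the 2 most alike each gene, the other chromosome 14 genes and GAPDH; named barcodes were the 3 of smallest pooled p and any called. The computations were tested on simulated data. Libraries of the same species and panel differed beyond counting noise. Human and chimpanzee deviations by screen replicate correlated over the 7 genes with r = 0.68. The labels name these screen replicates, which number 2. Panel 2 libraries all belong to screen replicate 2, so this r cannot tell screen replicate from panel. Alternatives were DESeq2 (1.42.0), other scalings, depths, assignment rules, subsets of libraries and of cells, some of them chosen after seeing the data.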

Additional observations from a re-analysis of the deposited data

Results flagged for a closer look

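Among the 4 human libraries of panel 1, human 6 stood apart from the others in BAZ1A share, at 5.93% against 4.58% to 4.69%. It is the library of those 4 that belongs to screen replicate 2. Among the 6 human libraries, human 4 stood apart in the variance over mean of PSMA6 at 30 UMIs, at 1.18. That library lost 2010 of its 3825 cells to the depth limit and held the cell with 553 PSMA6 UMIs, and without cells over 5 times the share of a gene its value was 1.11. In all, 30 groups of libraries were checked in this way and 2 stood out, where chance alone gives about 1 in 20. The species difference in BAZ1A was less negative on panel 2 than on panel 1 by 0.46 on the log2 scale (adjusted p = 0.0276, edgeR interaction), and DESeq2 gave 0.11 (adjusted p = 0.476). AKAP6 passed the same interaction by edgeR (0.63, adjusted p = 0.0255) and did not by DESeq2 (0.29, adjusted p = 0.103). No other shared gene passed it by edgeR, while DESeq2 passed ARHGAP5, NPAS3, TENM3 and DCTD, each with a negative value.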

How the results depend on the processing

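The BAZ1A species ratio kept its direction and its call in all 28 alternatives. The PSMA6 ratio did so in 25, and was 0.45, 0.27 and 0.0289 (adjusted p = 0.0616, 0.136 and 0.937, edgeR) in screen replicate 1, against all of panel 1 and against all of panel 2. Leaving out each library gave -0.75 to -0.55 for BAZ1A, 0.43 to 0.60 for PSMA6 and -1.30 to -1.06 for the log2 ratio of BAZ1A to PSMA6. With the replicate block of screen replicates these were -0.59, 0.51 and -1.14 (adjusted p = 0.00187 and 0.00102 by edgeR, exact permutation p = 0.005), and the block changed no call. Groups too small to reach the threshold, or near it, gave log2 ratios of -0.77, -1.33 and -0.95 within panel 2, screen replicate 1 and screen replicate 2. In the same order the difference in BAZ1A detection was -6.93, -18.2 and -8.84 points, and in PSMA6 detection 2.86, 4.60 and 4.11. PSMA6 detection was 5.16 within panel 1, 3.88 without human 4 and 5, and -0.445 with no thinning, and leaving out each library gave 2.77 to 5.05 (BAZ1A -15.9 to -12.3).

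The BAZ1A coefficient of variation differed by 0.105 with strata of screen replicate and panel (exact p = 0.0417) and by 0.140 at 60 UMIs (exact p = 0.0303), and by 0.0699 to 0.131 on leaving out each library. Its variance over mean changed sign to -0.0373 within screen replicate 1 and -0.0243 without human 4 and 5. For PSMA6 the variance over mean changed sign to 0.0530 (within panel 2), 0.0139 (screen replicate 2), 0.00519 (without recurring barcodes), 0.0485 (60 UMIs), 0.00495 (without human 2), 0.0140 (without human 6) and 0.00376 (without chimpanzee 4), within -0.0411 to 0.0140 on leaving out each library. Its coefficient changed sign to 0.0190 within panel 2 and 0.00349 without human 6, the highest of a range from -0.0353. The median correlation across cells was -0.0363 (60 UMIs), 0.00429 (Spearman) and -0.00889 (log2 shares, pseudocount 0.01) in human and -0.0459 (Spearman) in chimpanzee libraries. Of the differences in spread given here, those of the BAZ1A coefficient with strata, at 60 UMIs and without human 6 passed 0.05 unadjusted, and the others did not.

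Of guide barcode pairs with BAZ1A or PSMA6, 1 was called by edgeR's newer default in pooled chimpanzee cells (SplintRbar1), 1 without recurring barcodes on chimpanzee panel 2 (Brainbar3, -0.83), 1 under the looser assignment in the interaction (PSMA6 with Brainbar5, 0.21), and 1 in place of 6 under the stricter assignment on human panel 2, which tests fewer cells. Over all genes, human panel 2 calls numbered 10 of 525 pairs by edgeR, 18 of 525 (3.43%) by DESeq2 and 3 of 180 (1.67%) under the stricter assignment. Pooled chimpanzee calls numbered 0 of 168 and, by the newer default, 4 of 168 (2.38%). Without recurring barcodes, 2 of 525 pairs (0.381%) were called on chimpanzee panel 2. The interaction under the looser assignment called 3 of 189 pairs (1.59%). The stricter assignment could not be fitted on chimpanzee panel 1. The cause of these changes was not tested. Human 4 had the fewest UMIs of the 7 genes per cell, a median of 28. Its median over all genes of its panel, 211 UMIs per cell, was above the 152 of human 5 and the 191 of chimpanzee 4.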

Other observations

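In the 6 human libraries the log2 share of BAZ1A went with that of ARHGAP5 (Pearson r = 0.96) and against that of AKAP6 (r = -0.995), where the 4 libraries of panel 1 and the 2 of panel 2 form separate clusters, so these values describe the panels.

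Cells whose droplet barcode recurred in a second library had a like depth in some pairs of libraries: the log2 UMIs of the 7 genes correlated with r = 0.69 between human 4 and human 5, 0.69 between human 4 and chimpanzee 3, 0.66 between human 5 and chimpanzee 3 and 0.41 between chimpanzee 4 and chimpanzee 5. The correlation was 0.03 for human 6 with chimpanzee 4 and 0.13 for human 6 with chimpanzee 5. The guide barcode with most UMIs, taken without a minimum of guide UMIs, was the same in 23.4% to 42.0% of such cells over these 6 pairs. Cells without any guide UMI would count as the same there, so these values do not measure how often a guide was shared.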
